A study of Rattus norvegicus with 16 samples.

Results

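The Nr4a family consists of 3 orphan nuclear receptors, encoded by Nr4a1 (Nur77), Nr4a2 (Nurr1) and Nr4a3 (Nor-1), and their transcripts were followed here in 16 rat ovaries. Every array probe that the scanner output assigned to a family member was taken, which gave 5 probes for 3 genes out of 20215 genes tested. The family was selected on measured values. Nr4a3 had been seen to be higher in BRCA1+/- ovaries given vehicle and to differ in opposite directions with olaparib in the 2 genotypes. Differences of the 3 members between the 4 groups are therefore descriptions, with a standard error (SE) and no test.

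Female rats of the Sprague-Dawley stock Jcl:SD were used, either wild-type (WT) or heterozygous for BRCA1 (BRCA1+/-). Olaparib, an inhibitor of the poly(ADP-ribose) polymerases, was given subcutaneously once a day for 14 days at 50 mg/kg, starting at 3 weeks of age, and ovaries were collected 24 h after the last dose. The groups were WT vehicle, WT olaparib, BRCA1+/- vehicle and BRCA1+/- olaparib, with 4 ovary samples each and 1 single-colour Agilent array per sample. What the vehicle was, how and for how long it was given, and where the BRCA1 lesion lies are not given in the sources used here. The design text counts 8 animals of each genotype, so the p-values measure the spread between animals within this experiment.

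NR4A proteins bind DNA as monomers at a short element called the NBRE, as homodimers, or, for NR4A1 and NR4A2, as partners of RXR. No natural ligand is known to be needed for their activity, which follows chiefly from how much protein is made, so transcript abundance is the usual readout. The genes are immediate early genes: hormones acting through cAMP, growth factors and stress induce them without new protein synthesis. In the ovary the surge of luteinising hormone induces them in theca and granulosa cells, where NR4A1 has been linked to steroidogenic genes.

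The probes are shown first because each value below is the signal of 1 such sequence. They are 60 bases long, and the first 30 bases of each are printed 5′ to 3′ on the strand of the gene.

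Nr4a1, used: tccttccatgtgtacatagctgtcactcaa
Nr4a2, used: gaaggcagaggcttgtaaattttatccaat
Nr4a2, other: acaaaattgtaaattgtcttaaagaccatg
Nr4a3, used: gtcttccatagttatcacaactatgagagc
Nr4a3, other: tggccgttttgctaagactcaaactttgaa

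In the coordinates of the array files (build rn4) the Nr4a1 probe lies at chr7:140020442-140020501 on the plus strand. It was printed 10 times on each array. The Nr4a2 probes lie at chr3:38866258-38866317 and chr3:38867021-38867080 on the minus strand, and their starts are 763 bases apart. Those of Nr4a3 lie at chr5:64754182-64754241 and chr5:64753210-64753269 on the plus strand, with starts 972 bases apart. Whether a probe falls in a coding exon or an untranslated region was not determined, because no annotation of this build was used. All 5 probes passed the filter on dim signals. Each gene was represented by its brightest probe on average, and the other probes of Nr4a2 and Nr4a3 are described beside it.

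A stretch upstream of Nr4a1 is shown because cAMP is a main inducer of the gene. The RefSeq promoter table (build GRCr8) holds a window for Nr4a1 and for Nr4a2. The 250 bases before the Nr4a1 start, at chr7:134259888-134260137 on the plus strand, are given with each core of a cAMP response element (TGACG, searched on both strands, so that CGTCA also counts) in capitals.

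Nr4a1: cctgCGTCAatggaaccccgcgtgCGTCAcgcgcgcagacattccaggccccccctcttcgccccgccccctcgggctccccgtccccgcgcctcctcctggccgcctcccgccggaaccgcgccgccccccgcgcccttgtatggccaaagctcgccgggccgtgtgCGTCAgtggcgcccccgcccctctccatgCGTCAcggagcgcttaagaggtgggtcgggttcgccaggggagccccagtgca

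The Nr4a1 window held 4 such cores, beginning 246, 226, 82 and 53 bases before the start. Of all 33469 windows of that length in the table, 0.173% held as many and 18.2% held at least 1. The Nr4a2 window held 1. The full palindrome TGACGTCA, which contains the core on both strands, was in neither window and in 1.59% of all windows. The NBRE letters AAAGGTCA, the element NR4A monomers bind, were also in neither, against 1.24% of all windows. The core contains the letters CG, and the windows were not matched for base content. The shares are therefore not those among windows of a composition like that of Nr4a1. These are matches of letters and not measured binding sites.

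Signals are given on a log2 scale relative to the 75th percentile of the same array, so that 0 is the level of a fairly bright probe, and a step of 1 is a doubling. The 75th percentile ranged from 202.3 to 565.8 between arrays, 55.5% to 60.7% of probes were well above background, and no spot was saturated (0 spots). Replicates 1 and 2 of each group were on 1 slide and replicates 3 and 4 on the other. The column of an array on its slide was the same for all arrays of a group, so array column and group cannot be told apart. Ovarian identity was checked with markers: 9 of 10 granulosa, 6 of 6 theca and interstitial and 8 of 10 oocyte genes were well above background on all 16 arrays. Markers of oviduct and ciliated epithelium stood high on 6 arrays, namely WT olaparib replicates 1 and 3, BRCA1+/- vehicle replicates 3 and 4 and BRCA1+/- olaparib replicates 3 and 4. Brca1, the gene of the genotype, had a mean log2 signal of -1.11 ± 0.31 in BRCA1+/- vehicle and -0.44 ± 0.36 in WT vehicle (SD, n = 4), a difference of -0.67 ± 0.27 (SE) with limma's adjusted p of 0.862. With olaparib the Brca1 genotype difference was -0.16 ± 0.27 (SE). Because the position of the lesion is not given, this probe does not check the labels.

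Nr4a1 encodes Nur77, the family member most studied in ovarian steroid production. Its log2 signals in WT vehicle were 1.61, 2.14, 2.47 and 1.83 for replicates 1 to 4. In WT olaparib they were 2.56, 2.55, 2.95 and 2.87. All 4 WT olaparib ovaries were above all 4 WT vehicle ovaries, although the nearest values, 2.55 and 2.47, were close. The values were 3.12, 2.24, 2.59 and 3.33 in BRCA1+/- vehicle. In BRCA1+/- olaparib they were 1.18, 3.54, 1.84 and 1.68. In that last group 3 ovaries were low, whereas replicate 2 had the highest Nr4a1 signal of the 16. The SD over the 10 spots within an array was 0.034 to 0.079, below the SD between ovaries of a group.

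The order of the Nr4a1 group means was BRCA1+/- vehicle (2.82 ± 0.50, SD, n = 4), WT olaparib (2.73 ± 0.21), BRCA1+/- olaparib (2.06 ± 1.03) and WT vehicle (2.01 ± 0.37). The first and second of these differ by less than their spread, and so do the last 2. Olaparib minus vehicle was 0.72 ± 0.41 (SE, n = 4 per group) in WT, a 1.65-fold higher signal, and -0.76 ± 0.41 in BRCA1+/-, a 1.7-fold lower one. BRCA1+/- minus WT was 0.81 ± 0.41 with vehicle and -0.68 ± 0.41 with olaparib. Subtracting the WT olaparib difference from the one in BRCA1+/-, called the interaction below, gave -1.49 ± 0.58. The differences that involve BRCA1+/- olaparib depended on single ovaries of that group. Without its replicate 1 or its replicate 2, the olaparib difference in BRCA1+/- was -0.47 or -1.26, and the genotype difference with olaparib was -0.38 or -1.17. On slide 1 these differences were -0.32 and -0.20, and on slide 2 -1.2 and -1.16.

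Nr4a2 encodes Nurr1, best known from dopaminergic neurons. In WT vehicle its signals were -1.18, -0.92, -0.40 and -1.42, and in WT olaparib -1.29, -0.80, -0.58 and -0.59. BRCA1+/- vehicle gave -0.50, -0.36, -1.55 and -0.56. BRCA1+/- olaparib gave -1.17, 0.05, -1.17 and -1.29. All 4 groups overlapped. Replicate 2 of BRCA1+/- olaparib, the ovary with the highest Nr4a1 signal, also had the highest Nr4a2 signal.

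The Nr4a2 group means, from high to low, were -0.74 ± 0.54 (SD, n = 4) in BRCA1+/- vehicle, -0.81 ± 0.33 in WT olaparib, -0.89 ± 0.63 in BRCA1+/- olaparib and -0.98 ± 0.44 in WT vehicle. Neighbours in that order, and also its ends, differ by less than their spread. Olaparib minus vehicle was 0.17 ± 0.34 (SE) in WT and -0.15 ± 0.34 in BRCA1+/-. The genotype difference was 0.24 ± 0.34 with vehicle and -0.08 ± 0.34 with olaparib, and the interaction was -0.32 ± 0.48. The genotype differences turned sign between slides, from 0.62 on slide 1 to -0.14 on slide 2 with vehicle and from 0.48 to -0.64 with olaparib. The second Nr4a2 probe followed the first over the 16 arrays (r = 0.72, rho = 0.69, Pearson and Spearman), as a description of 2 probes on shared arrays. It gave differences of 0.00 ± 0.32 and -0.33 ± 0.32 for olaparib in WT and BRCA1+/-.

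Nr4a3 encodes Nor-1. In WT vehicle its signals were -4.73, -4.04, -5.43 and -4.41, and replicate 3 of that group was the only one of the 16 ovaries in which the probe was not well above background. WT olaparib gave -3.26, -2.87, -3.34 and -2.19. In BRCA1+/- vehicle the signals were -1.83, -3.64, -3.58 and -1.60. In BRCA1+/- olaparib they were -3.48, -2.82, -3.98 and -3.83. The WT vehicle ovaries were the 4 lowest of the 16, all BRCA1+/- vehicle and all other ovaries lying above them. The nearest other value was -3.98. In BRCA1+/- vehicle, replicates 1 and 4 were the highest of the 16 and replicates 2 and 3 were among the lower ones, so that each slide held 1 ovary of either kind.

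The Nr4a3 group means were -2.66 ± 1.1 (SD, n = 4) in BRCA1+/- vehicle, -2.91 ± 0.52 in WT olaparib, -3.52 ± 0.52 in BRCA1+/- olaparib and -4.65 ± 0.59 in WT vehicle. The first pair of neighbours differs by less than its spread, the second pair by slightly more than 1 SD, and WT vehicle lies below the next group by more. BRCA1+/- minus WT was 1.99 ± 0.48 (SE) with vehicle, a 3.97-fold higher signal, and -0.61 ± 0.48 with olaparib. Olaparib minus vehicle was 1.74 ± 0.48 in WT, 3.34-fold higher, and -0.86 ± 0.48 in BRCA1+/-, 1.82-fold lower. The interaction was -2.60 ± 0.68. It was -1.73 on slide 1 and -3.47 on slide 2. The olaparib difference in BRCA1+/- was -0.51 without BRCA1+/- vehicle replicate 4, -0.41 on slide 1 and -1.32 on slide 2. The genotype difference with olaparib was -0.37 without WT olaparib replicate 4, -0.08 on slide 1 and -1.14 on slide 2.

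**Figure D1:**
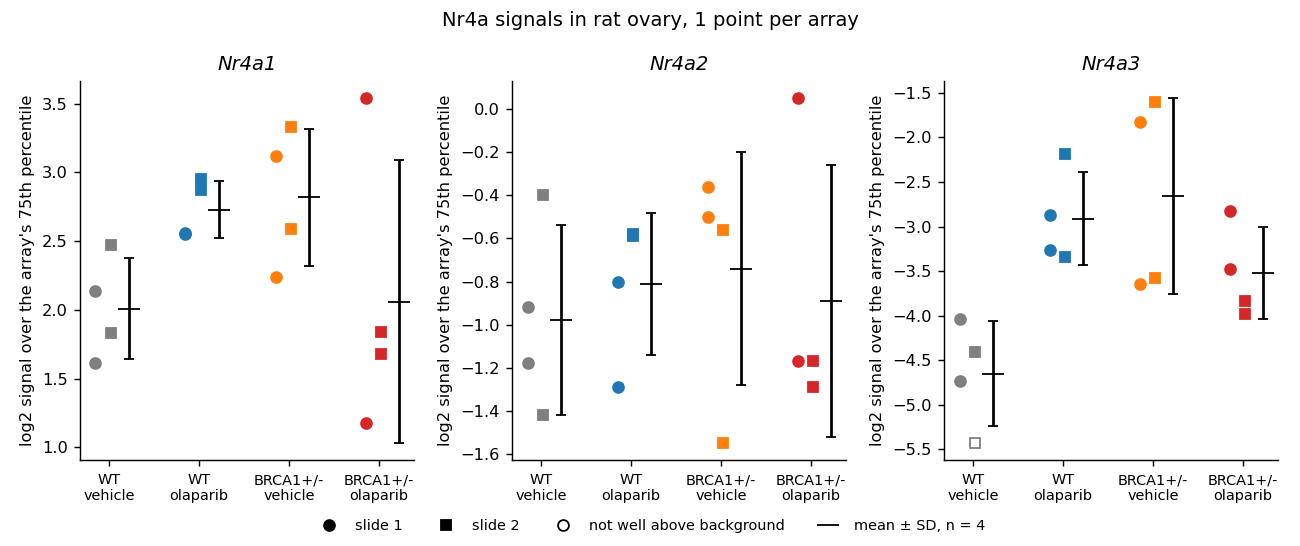
Log2 signal over the array's 75th percentile (y axis) for Nr4a1, Nr4a2 and Nr4a3, 1 panel per gene, with 1 point per ovary in the 4 groups (x axis). Circles are slide 1, squares slide 2, the open square is the WT vehicle ovary not well above background, and bars give the mean ± SD (n = 4). For Nr4a3 the 4 WT vehicle ovaries, at -5.43 to -4.04, lie below all others, and Nr4a2 overlaps in all groups.

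Both Nr4a3 probes ran in parallel over the 16 arrays (r = 0.92, rho = 0.84), again as a description. The values in this paragraph are those of the second probe. Signals in WT vehicle were -4.75, -4.89, -5.57 and -4.84, and in WT olaparib -4.09, -3.89, -4.04 and -2.65. Those groups did not overlap. BRCA1+/- vehicle gave -2.57, -4.83, -3.62 and -2.37, so that its replicate 2 lay within the WT vehicle range. BRCA1+/- olaparib gave -5.06, -3.49, -4.93 and -4.51, and its replicates 1 and 3 lay within that range as well. By this probe the genotype difference with vehicle was 1.66 ± 0.51 (SE), the olaparib differences were 1.34 ± 0.51 in WT and -1.15 ± 0.51 in BRCA1+/-, and the interaction was -2.50 ± 0.72. The 2 probes gave the same sign in all 5 comparisons.

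The background-subtracted Nr4a3 signals were small. On a linear scale the used probe read 4.8 to 23.9 in WT vehicle, against 39.0 to 63.7 in WT olaparib, 16.9 to 187.1 in BRCA1+/- vehicle and 23.6 to 61.2 in BRCA1+/- olaparib. The lowest of these, 4.8, came from 1 of the dimmest arrays, with a 75th percentile of 205.8. After the normexp background correction with an offset of 50 and quantile scaling, which draws dim signals together, the Nr4a3 genotype difference with vehicle was 0.71, the WT olaparib difference was 0.55 and the interaction was -0.94.

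**Figure D2:**
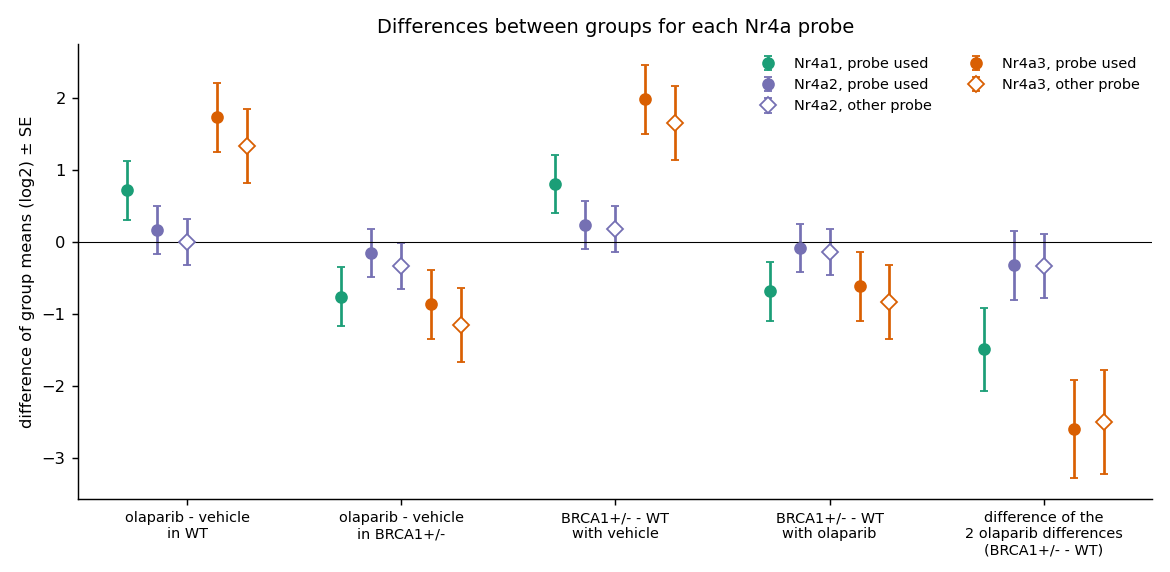
Difference between group means on the log2 scale ± SE (y axis) for the 5 Nr4a probes in the 5 comparisons (x axis), from limma's fit over 16 arrays; filled circles are the probes used and open diamonds the second probes. Nr4a1 and both Nr4a3 probes were higher with olaparib in WT and lower with olaparib in BRCA1+/-, and Nr4a2 lay near 0.

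These differences stand against a background in which limma called no gene. At a Benjamini-Hochberg adjusted p under 0.05, 0 of 20215 genes (0%) were called for olaparib in WT, olaparib in BRCA1+/-, genotype with vehicle, genotype with olaparib, or the interaction. An unadjusted p under 0.05 from limma was given to 877 genes (4.34%) for olaparib in WT, 237 (1.17%) for olaparib in BRCA1+/-, 1111 (5.5%) for genotype with vehicle, 185 (0.915%) for genotype with olaparib and 694 (3.43%) for the interaction. Groups were non-overlapping and higher for 114 genes (0.564%) with olaparib in WT, where Nr4a1 and Nr4a3 were among them, and for 253 (1.25%) in BRCA1+/- against WT with vehicle, where Nr4a3 was. They were non-overlapping and lower for 123 genes (0.608%) with olaparib in BRCA1+/- and 52 (0.257%) in BRCA1+/- against WT with olaparib, with no member among them. Since the family was selected on these same comparisons, nothing is read from these counts. Differences at least as large and of the same sign as that of Nr4a3 were found in 1.35% of genes for genotype with vehicle, in 2.55% for olaparib in WT and in 1.45% for the interaction.

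A contrast that played no part in selecting the genes was that between slides. Limma called 1597 genes (7.9%) between slide 2 and slide 1, and no member was among them. Slide 2 minus slide 1 was 0.08 ± 0.30 (SE) for Nr4a1 with a 95% interval of -0.56 to 0.72 and limma's adjusted p of 0.902. It was -0.17 ± 0.24 for Nr4a2 with adjusted p = 0.706 and -0.21 ± 0.35 for Nr4a3 with adjusted p = 0.754, both from limma. The Nr4a1 and Nr4a3 differences between groups had the same sign on both slides, and the Nr4a1 interaction was -1.0 on slide 1 and -1.97 on slide 2.

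Scores of cell type marker lists, each the mean of the list's centred log2 signals, moved with some of these groups. The oviduct and ciliated epithelium score (17 of 20 genes measured) was -2.20 to -1.22 in WT vehicle and reached 3.24 in WT olaparib, 3.49 in BRCA1+/- vehicle and 2.45 in BRCA1+/- olaparib. Without the 6 high arrays, the Nr4a3 genotype difference with vehicle was 1.92 ± 0.55 (SE), the WT olaparib difference was 2.12 ± 0.55 and the interaction was -2.53 ± 0.83, with 2 arrays left in each group but WT vehicle. The corresponding Nr4a1 values were 0.67, 0.70 and -1.02. The BRCA1+/- arrays left were replicates 1 and 2 of both groups, all on slide 1. The olaparib difference in BRCA1+/- was then that of slide 1, -0.41 for Nr4a3 and -0.32 for Nr4a1. In BRCA1+/- ovaries a high oviduct score and slide 2 therefore cannot be told apart. The score of T and NK cell markers (6 of 8 measured, Cd3e and Cd2 not among them) was 0.26 to 0.89 in BRCA1+/- vehicle, -0.79 to 0.14 in WT vehicle, -0.60 to -0.24 in WT olaparib and -0.68 to 0.66 in BRCA1+/- olaparib. The granulosa score (10 of 10 measured) was -0.60 to -0.07 in BRCA1+/- vehicle against -0.35 to 0.55 in WT vehicle. The adipocyte score (10 of 12 measured) was -2.19 to -0.04 in WT vehicle, -1.66 to 3.14 in WT olaparib, -0.59 to 0.97 in BRCA1+/- vehicle and -0.68 to 0.45 in BRCA1+/- olaparib. The red blood cell score (9 of 9 measured) was 0.15 to 0.89 in BRCA1+/- vehicle, -0.15 to 0.67 in WT vehicle, -1.43 to 0.30 in WT olaparib and -2.07 to 0.62 in BRCA1+/- olaparib. The part of T and NK, granulosa, adipocyte or red blood cell content in the Nr4a values was not tested. In whole ovaries, fewer cells of a type and less RNA per cell cannot be told apart.

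The members were next compared with each other over the 16 arrays. Nr4a1 and Nr4a2 were correlated with r = 0.67 by Pearson (two-sided permutation p = 0.0045, adjusted over the 3 pairs 0.0105) and rho = 0.54 by Spearman (permutation p = 0.0337, adjusted 0.0505). Without the 2 arrays farthest from the Nr4a1 median, r was 0.57 (permutation p = 0.0341). The pooled pairs with Nr4a3 are given as descriptions, because its values include the group differences it was selected for. Nr4a1 and Nr4a3 had an r of 0.64 and a rho of 0.75, and r was 0.76 without the 2 farthest arrays. Nr4a2 and Nr4a3 had an r of 0.35, a rho of 0.35 and, without the 2 farthest arrays, an r of 0.34. Leaving out WT vehicle replicate 3 alone, the ovary whose Nr4a3 probe was not well above background, gave an r of 0.59 for this pair.

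The pooled values include the differences between groups by which Nr4a3 was selected. Taken as deviations from the 4 group means, which removes them, r was 0.71 for Nr4a1 with Nr4a2 (permutation, adjusted p = 0.00675), 0.48 for Nr4a1 with Nr4a3 (permutation, adjusted p = 0.0797) and 0.32 for Nr4a2 with Nr4a3 (permutation, adjusted p = 0.224). Within slide 1, r was 0.73 for Nr4a1 with Nr4a2 and 0.70 for Nr4a1 with Nr4a3, and within slide 2 it was 0.67 and 0.66. By exact permutation over 8 arrays the adjusted p for Nr4a1 with Nr4a2 was 0.0763 on slide 1 and 0.123 on slide 2. Without the 6 arrays of high oviduct score, r was 0.83 for Nr4a1 with Nr4a2 and 0.57 for Nr4a1 with Nr4a3. As deviations over all 16 arrays, Nr4a1 and Nr4a2 were correlated, but BRCA1+/- olaparib replicate 2 was the highest of all ovaries for both genes (3.54 and 0.05). For Nr4a2 it also lay far above the rest of its group. How far r of the deviations rests on that ovary was not tested, so no correlation among the remaining ovaries is read from it. Nr4a1 with Nr4a3 did not pass when group differences were removed.

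**Figure D3:**
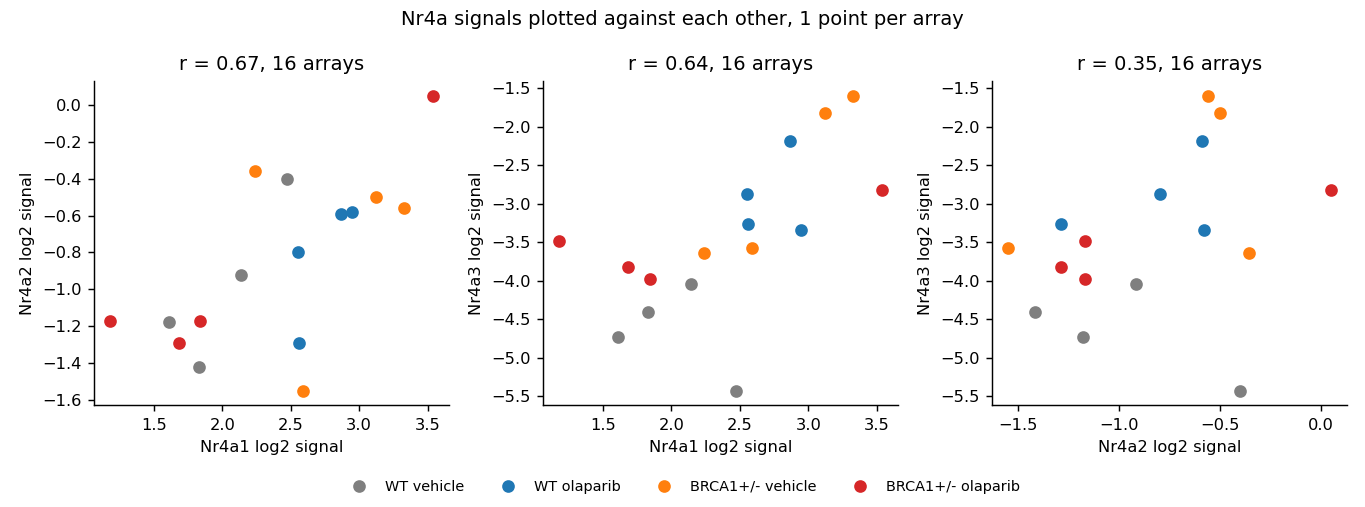
Log2 signals of 2 Nr4a genes against each other, with 1 panel per pair and 1 point per ovary, coloured by group; the axes are log2 signals over the array's 75th percentile. Pearson's r over the 16 arrays was 0.67 for Nr4a1 with Nr4a2, 0.64 for Nr4a1 with Nr4a3 and 0.35 for Nr4a2 with Nr4a3.

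Because the family belongs to the immediate early genes, 41 other such genes were set beside it, and 37 passed the filter. No early response gene was called by limma in any of the 5 comparisons. In BRCA1+/- against WT with vehicle, 33 of the 37 had a positive difference, with a median of 0.38 against -0.06 over all genes tested. Over all 20215 genes 8542 had a positive difference. An unadjusted p under 0.05 was found for 5 of the 37, all higher, and for 391 higher and 720 lower genes of all tested. With olaparib in BRCA1+/- 35 of 37 had a negative difference, the median was -0.45 against 0.02 over all genes, and 4 had an unadjusted p under 0.05, all lower. Over all genes 9462 had a negative difference there, and 130 lower genes reached that p. With olaparib in WT 19 of the list were higher and 18 lower, with a median of 0.01 against -0.07. Over all genes 7926 were higher and 12289 lower there. The interaction had a median of -0.36 against 0.08, with 28 of 37 lower and 4 at an unadjusted p under 0.05, all lower. Over all genes 8523 were lower for the interaction, and 285 lower genes reached that p. A single gene of the list, higher each time, reached that p for olaparib in WT and for genotype with olaparib. Over all genes 457 and 112 higher genes did. These comparisons share groups: BRCA1+/- vehicle enters the first, the second and the interaction.

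Fos, a subunit of the AP-1 transcription factor, had signals of -2.75, -1.90, -1.48 and -2.41 in WT vehicle and 0.48, -0.62, -0.50 and -0.13 in BRCA1+/- vehicle. Those groups did not overlap. In WT olaparib the Fos values were -2.59, -2.19, 0.95 and 0.73, low on slide 1 and high on slide 2. In BRCA1+/- olaparib they were -2.77, -0.65, -2.19 and -2.12, and replicate 2 was the highest, as for all 3 Nr4a genes. The Fos difference was 1.94 ± 0.72 (SE) for genotype with vehicle (limma, adjusted p = 0.862) and -1.74 ± 0.72 for olaparib in BRCA1+/- (limma, adjusted p = 1). For olaparib in WT it was -0.06 on slide 1 and 2.78 on slide 2, unlike Nr4a3, at 1.32 and 2.15, and Nr4a1, at 0.68 and 0.77.

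Other genes of the list gave differences that did not pass either. Fosb, a further AP-1 subunit, differed by 2.60 ± 0.92 (SE) for genotype with vehicle (limma, adjusted p = 0.862). Ier3, a survival regulator, differed there by 1.19 ± 0.34 and had the smallest unadjusted p of the list, 0.00312 by limma. Sik1, a kinase induced by cAMP, had olaparib differences of 1.01 ± 0.43 in WT and -0.78 ± 0.43 in BRCA1+/-. Its interaction was -1.79 ± 0.61 (limma, adjusted p = 0.969). Per1, a circadian regulator, had the smallest unadjusted p for genotype with olaparib, with a difference of 0.54 ± 0.25. Junb, Atf3 and Dusp1 had genotype differences with vehicle within the spread of their groups, with means of -0.09 ± 0.51, 0.40 ± 0.58 and -1.29 ± 0.57 (SD, n = 4) in BRCA1+/- vehicle and -0.17 ± 0.67, -0.06 ± 0.95 and -1.72 ± 0.74 in WT vehicle.

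**Figure D4:**
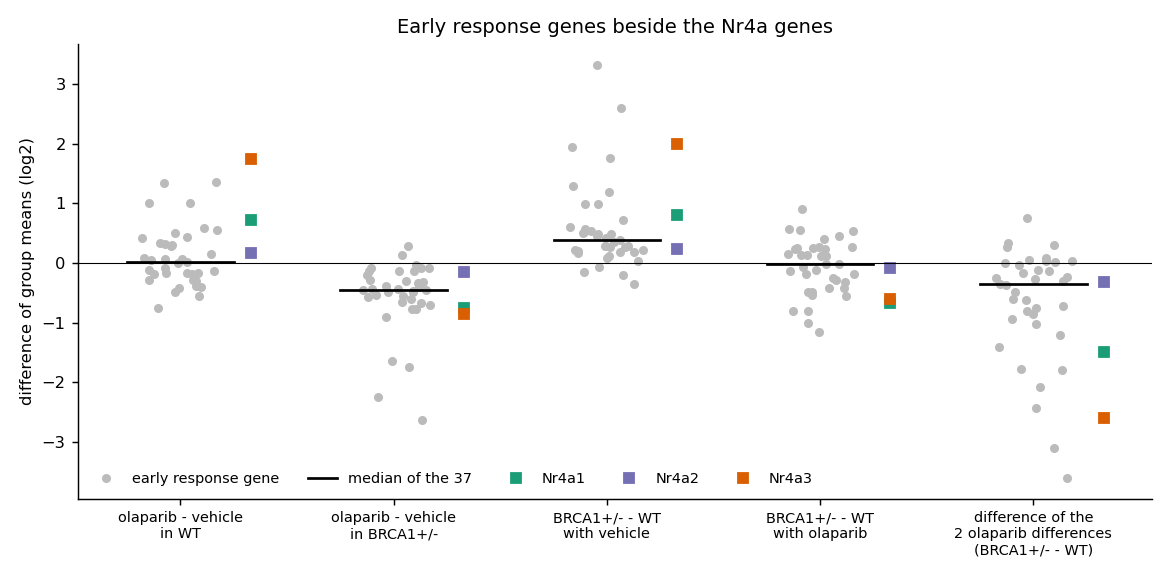
Difference between group means on the log2 scale (y axis) in the 5 comparisons (x axis) for 37 early response genes (grey points, median as a black line) and the 3 Nr4a genes (coloured squares). The medians were 0.01, -0.45, 0.38, -0.02 and -0.36 from left to right, and Nr4a3 lay at 1.74, -0.86, 1.99, -0.61 and -2.60.

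Correlations of the members with Fos, Fosb, Egr1, Junb, Atf3 and Dusp1 were computed over the 16 arrays, 18 pairs in all. Permutation p-values were adjusted over the 18, and those of Nr4a1 and Nr4a2 are given. Arrays were permuted across groups, so group differences that both genes of a pair share enter these p-values. The r of deviations from the group means is free of those differences but was not tested here. The pairs of Nr4a3 are given as descriptions, because its pooled values include the group differences it was selected for. The pair with the smallest p was Nr4a1 and Fosb, at r = 0.81 (permutation p = 0.00017, adjusted 0.00306) and rho = 0.79 (permutation p = 0.00062, adjusted 0.00639). Without the 2 farthest arrays r was 0.84. It was 0.73 on slide 1, 0.94 on slide 2 and 0.74 as deviations from the group means. Nr4a1 also passed with Fos (r of 0.76, permutation adjusted p = 0.00738, rho of 0.77) and with Egr1, a zinc finger early gene (r of 0.74, permutation adjusted p = 0.00828, rho of 0.72). As deviations from the group means r was 0.63 with Fos and 0.69 with Egr1. Nr4a3 had r of 0.59, 0.69 and 0.61 and rho of 0.51, 0.54 and 0.49 with Fos, Fosb and Egr1. As deviations from the group means its r was 0.31, 0.55 and 0.56. Nr4a2 and Fos had an r of 0.58 (permutation adjusted p = 0.0471) and a rho of 0.54, which did not pass (permutation adjusted p = 0.0894), and r was 0.61 as deviations from the group means. With Junb, Atf3 and Dusp1, r of the 3 members lay between -0.06 and 0.45, and no pair of Nr4a1 or Nr4a2 passed.

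The 5 named genes most like each member over the 16 arrays, ranked by Pearson's r among 16340 named genes and therefore given with no test, differed between members. For Nr4a1 they were Nab2 (0.82), a co-repressor of the EGR factors that is itself induced by them, Fosb (0.81), the kinase Csnk1e (0.79), Sik1 (0.79) and Ldlrad4 (0.79), an inhibitor of TGF-beta signalling. For Nr4a2 they were Bahd1 (0.93), a heterochromatin protein, Slc35a2 (0.91), a UDP-galactose transporter, the Argonaute gene Ago4 (0.91), the scaffold gene Sash1 (0.89) and the histone demethylase gene Kdm7a (0.89). For Nr4a3 they were Egln3 (0.86), a prolyl hydroxylase induced by hypoxia, Lrrfip1 (0.85), Sowahb (0.85), Fpr1 (0.84), a receptor for formyl peptides on myeloid cells, and Lfng (0.81), a modifier of Notch receptors. As deviations from the group means, r stayed at 0.68 or above for the Nr4a1 set, 0.90 or above for the Nr4a2 set and 0.65 or above for the Nr4a3 set.

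The shares of genes with r above 0.5 describe how widely each pattern was followed. For Nr4a1 it was 2.4% of all named genes and 32.4% of the early response genes, for Nr4a3 1.57% and 35.1%, and for Nr4a2 11.6% and 24.3%. Genes of gonadotropin and cAMP signalling were above 0.5 with Nr4a2 in 10 of 28 cases (35.7%), with Nr4a1 in 0 and with Nr4a3 in 1. For genes induced by luteinising hormone at ovulation the share was 16.7% with Nr4a1, 0% with Nr4a2 and 22.2% with Nr4a3. For other nuclear receptors it was 12.5%, 18.8% and 0%, so shares above those of all named genes were not confined to early response genes. These r are pooled over groups and include the group differences. The arrays share slides and scaling, and genes are not independent.

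The signalling genes upstream of the family, 28 of 28 measured, gave 0 calls in any comparison by limma, with an unadjusted p under 0.05 for 1 gene (lower) with olaparib in WT, 2 (lower) for genotype with vehicle, 2 (higher) for the interaction and 0 in the other comparisons. Lhcgr, the receptor for luteinising hormone, had means of -0.07 ± 0.96 (SD, n = 4) in WT vehicle and -0.09 ± 0.72 in BRCA1+/- vehicle. Its olaparib differences were 0.15 ± 0.64 (SE) in WT and -0.39 ± 0.64 in BRCA1+/-. Fshr, the follicle-stimulating hormone receptor, lay between 0.79 and 0.99 in the 4 group means. Creb1, which encodes the factor that binds cAMP response elements, lay between 1.42 and 1.51, and its relative Crem between 1.92 and 2.24. Prkaca, the catalytic subunit of protein kinase A, had the smallest unadjusted p of the list in 4 comparisons, with -0.72 ± 0.26 for genotype with vehicle (limma, adjusted p = 0.862) and -0.57 ± 0.26 for olaparib in WT (limma, adjusted p = 0.964). The cAMP phosphodiesterase gene Pde7b differed by -0.50 ± 0.24 with olaparib in BRCA1+/-.

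Partners and coregulators were measured for 14 of 15 genes, and limma called 0, with an unadjusted p under 0.05 for 1 gene (lower with olaparib in WT) over all comparisons. Rxra, the heterodimer partner, had means from -3.54 to -2.98 over the groups, and Rxrg was well above background on only 9 of the 16 arrays. Nr0b1 (DAX-1), an orphan receptor that represses steroidogenic factors, differed by -1.09 ± 0.46 (SE) with olaparib in WT (limma, adjusted p = 0.964). Nr0b2 (SHP), a related repressor, lay between 2.83 and 3.02. Ncoa3, a co-activator, had an interaction of -1.0 ± 0.52 (limma, adjusted p = 0.969).

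Of 24 genes described as regulated by NR4A proteins, 21 were measured and limma called 0 in each comparison, with an unadjusted p under 0.05 for 1 gene (lower) with olaparib in WT and 1 (higher) for genotype with olaparib. The list's median difference lay between -0.05 and 0.08. Star, which moves cholesterol into mitochondria, had means of 6.33 ± 0.20 (SD, n = 4) in WT vehicle, 4.92 ± 2.98 in WT olaparib, 5.99 ± 0.84 in BRCA1+/- vehicle and 6.44 ± 0.48 in BRCA1+/- olaparib. The WT olaparib mean rests on 1 ovary at 0.51. Cyp11a1, the side-chain cleavage enzyme, stayed between 8.97 and 9.29, and Hsd3b1 between 8.72 and 9.11. Cyp17a1, the theca enzyme of androgen synthesis, was 1.56 ± 3.71 in WT vehicle, 4.99 ± 0.98 in WT olaparib, 4.59 ± 0.72 in BRCA1+/- vehicle and 3.29 ± 3.51 in BRCA1+/- olaparib, and its interaction of -4.73 ± 2.40 (SE) did not pass (limma, adjusted p = 0.969). The Cyp17a1 signals in WT vehicle were 4.63, -1.57, 4.9 and -1.74, so no ovary lay near the group mean. Replicate 4 of BRCA1+/- olaparib was at -1.93. Aromatase, Cyp19a1, lay between -3.66 and -2.49. Pdk4, a regulator of pyruvate use, differed by 1.1 ± 0.40 for genotype with olaparib, Ret, a receptor tyrosine kinase gene, by 1.01 ± 0.51 for genotype with vehicle, and the cell cycle gene Skp2 was at -2.81 ± 0.62 in BRCA1+/- vehicle and -2.26 ± 0.36 in BRCA1+/- olaparib. Dlk1 was well above background on 3 of 4 WT vehicle arrays, 0 of 4 WT olaparib, 1 of 4 BRCA1+/- vehicle and 2 of 4 BRCA1+/- olaparib arrays. It passed the filter only through WT vehicle and was the 1 gene counted above as lower with olaparib in WT, so nothing is read from that count.

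Genes induced by luteinising hormone at ovulation were measured for 18 of 23, with 0 called by limma. An unadjusted p under 0.05 was found for 1 gene (higher) with olaparib in WT, 1 (lower) with olaparib in BRCA1+/-, 2 (higher) for genotype with vehicle and 2 (lower) for the interaction. Their median difference was 0.60 for genotype with vehicle, against -0.06 over all genes, and -0.34 for olaparib in BRCA1+/-, against 0.02. Ptgs2, the inducible prostaglandin synthase, was -5.06 ± 0.54 (SD, n = 4) in WT vehicle, -2.62 ± 1.86 in WT olaparib, -3.41 ± 1.60 in BRCA1+/- vehicle and -4.12 ± 1.57 in BRCA1+/- olaparib. Its difference for olaparib in WT was 2.44 ± 0.96 (SE; limma, adjusted p = 0.964), and the probe was well above background on 2 of 4 WT vehicle arrays. Areg, an EGF-like growth factor that relays the hormone signal, was 2.38 ± 0.94 higher in BRCA1+/- than in WT with vehicle (limma, adjusted p = 0.862), with no overlap. Rgs2, a regulator of G protein signalling, differed by 0.95 ± 0.35 for genotype with vehicle and -1.08 ± 0.35 for olaparib in BRCA1+/- (limma, adjusted p = 0.862 and 1), again with no overlap. Runx1 lay between 0.50 and 1.19.

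The family was last set beside 32 other nuclear receptors, all measured and none called by limma (0 calls). An unadjusted p under 0.05 was found for 2 (higher) with olaparib in WT, 3 (1 higher and 2 lower) for genotype with vehicle and 1 (lower) for the interaction. Their median difference was between -0.06 and 0.12 in the 5 comparisons. Nr5a1 (SF-1), which shares steroidogenic target genes with NR4A1, lay between 0.86 and 1.02. Nr5a2 (LRH-1), a granulosa receptor, differed by -0.88 ± 0.36 (SE) for genotype with vehicle (limma, adjusted p = 0.862). Esrrg, an orphan receptor, differed by 1.94 ± 0.80 for olaparib in WT and 1.81 ± 0.80 for genotype with vehicle (limma, adjusted p = 0.964 and 0.862), from a WT vehicle group in which 1 of 4 arrays was well above background. Thrb had an interaction of -0.93 ± 0.41, Ppara a difference of -0.59 ± 0.33 for genotype with olaparib, and Nr2c2 one of -0.37 ± 0.19 for olaparib in BRCA1+/-.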

How the data were processed

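RNA from 16 ovaries was hybridised to single-colour Agilent arrays, and the authors extracted spot signals with Agilent Feature Extraction 10.7, per the submitters' processing notes. The processed signal is an intensity, background-subtracted within each array per the file headers. A deposited table of log2 values was set against it, and every column differed from the log2 of that intensity by 1 fixed amount per array (Pearson r of 1.0 over 43279 probes). Its scale, centring and direction are therefore known.

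Of 62976 spots, control spots and outlier-flagged spots were dropped and spots of a probe averaged, which left 45598 probes before 12 without a usable spot on some array were removed. Each array's 75th percentile over probes was subtracted on the log2 scale. A probe was kept if well above background in at least 3 of 4 arrays of a group (26808 probes). The brightest probe stood for a gene, giving 20215 genes, 16341 with a name. Names came from a RefSeq gene table by accession (21229 probes), symbol (9328) or older symbol (321). A further 5270 probes kept the file's name and 9450 had none.

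A mean for each group was fitted (limma 3.58.1, R 4.3.3) over all 16 arrays (12 residual and 2.43 prior degrees of freedom), and p-values were adjusted by Benjamini-Hochberg. Its test is two-sided. Correlations were tested with two-sided permutation tests (100000 resamples, exact for 8 arrays). The fit and the permutation test were tested on simulated data.

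The members and gene lists were chosen with earlier results of these data known. Genes named were the members, the 5 most alike per member, a fixed set from each list, and the gene of smallest unadjusted p per list and comparison. Some genes of this rule are not reported here. Alternatives were the value table, quantile scaling, normexp with offset 50, other filters, slide and replicate blocks, single slides, other probes, and leaving out each array or the 6 arrays of high oviduct score. The number of arrays limits the precision.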

Additional observations from a re-analysis of the deposited data

Results flagged for a closer look

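Nr4a3 was higher than the WT vehicle mean in all 4 WT olaparib ovaries and lower than the BRCA1+/- vehicle mean in all 4 BRCA1+/- olaparib ovaries, an interaction of -2.60 on the log2 scale. The 2 BRCA1+/- groups nevertheless overlapped, and their olaparib difference was -0.41 on slide 1 and -1.32 on slide 2. The interaction was not tested, because the gene was selected for it. Of the 5 genes most like Nr4a3, those with the same opposite pattern were Egln3 (-2.38), Sowahb (-2.40), Fpr1 (-2.0) and Lrrfip1 (-0.75). They were picked for likeness to Nr4a3 over the same arrays, so a shared pattern was built in. In WT vehicle, Sowahb was well above background on 2 of 4 arrays and Fpr1 on 1 of 4. Ier3 (-1.21), Ncoa3 (-1.0), Nr2c2 (-0.48) and Ldlrad4 (-0.47) also had the opposite pattern. Limma's adjusted p for the interaction was 0.969 for each of these 8 genes.

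A single ovary far from the other 3 of its group was found in 16 of 232 groups examined (6.9%), where chance gives about 1 in 20. BRCA1+/- olaparib replicate 2 was far above its group for Nr4a2 (0.05), Fosb (-2.34) and Sash1 (2.89). BRCA1+/- vehicle replicate 3 was far below for Nr4a2 (-1.55) and Slc35a2 (1.30). WT vehicle replicate 1 was far below for Nab2 (2.54) and Rxra (-3.79). The other far samples were Junb in BRCA1+/- vehicle replicate 1 (0.68), Pde7b in BRCA1+/- vehicle replicate 4 (-3.01), Cyp17a1 in BRCA1+/- olaparib replicate 4 (-1.93), Skp2 in BRCA1+/- olaparib replicate 3 (-2.80), Nr5a2 (5.73) and Nr2c2 (-2.06) in WT olaparib replicate 2, Brca1 in WT olaparib replicate 3 (0.17), Ier3 in WT olaparib replicate 4 (2.53) and Ago4 in WT olaparib replicate 1 (-1.20).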

How the results depend on the processing

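The sign of every Nr4a1 and Nr4a3 difference was kept in all 130 alternative values of each gene, and that of Nr4a2 in 129 of 135, with signs taken before rounding. Many of these alternatives could not change a value. Other filters and the slide and replicate blocks left every difference as it was. So did leaving out an array of a group that did not enter the difference. These counts therefore overstate how far the signs were tried. Normexp with quantile scaling moved Nr4a3 to 0.55 for olaparib in WT, 0.71 for genotype with vehicle and -0.94 for the interaction, and the Nr4a3 interaction was -1.73 within slide 1 and -3.47 within slide 2. The Nr4a2 genotype difference with olaparib was 0.48 within slide 1 and -0.64 within slide 2. Nr4a3 was not measured where a probe had to be above background on all 16 arrays. Leaving out 1 array gave 0 to 1 genes called for olaparib in BRCA1+/-, the 1 call coming without WT olaparib replicate 4. The slide count was 1096 to 1953 without 1 array and 32 without the 6 arrays of high oviduct score. For pairs of members, r of Nr4a2 with Nr4a3 was 0.29 to 0.59 without 1 array, the 0.59 coming without WT vehicle replicate 3. The call for Nr4a1 with Nr4a2 was lost within slide 1 (r of 0.73) and slide 2 (0.67), with 8 arrays each. For Nr4a1 with Nr4a3, r was 0.70 within slide 1, 0.66 within slide 2, 0.57 without the 6 arrays and 0.48 as deviations from group means. The cause of these changes was not tested. Over all genes, deviations of same-numbered ovaries from their group means correlated unevenly, from -0.44 to 0.57 for number 1, -0.07 to 0.69 for number 2, 0.05 to 0.71 for number 3 and -0.30 to 0.39 for number 4, so that not every pair was above 0.1, and the numbers were not taken as pairs. With the replicate block the counts stayed at 0, the Nr4a3 interaction was -2.60 ± 0.60 (SE) and r of Nr4a1 with Nr4a3 was 0.75. The low Nr4a3 signal over background limits its fold sizes.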
